A study of Mus musculus with 20 samples.

Results

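Macrophages and monocytes sorted from control MC38 tumours were compared by RNA-seq, using the 5 libraries labelled as control macrophages and the 5 labelled as control monocytes, 10 of the 20 libraries of the series. MC38 is a mouse colon carcinoma line that grows as a transplanted tumour. The control groups received no anti-PD-L1, the antibody given in the other 10 libraries against PD-L1, a ligand of the inhibitory receptor PD-1, and cells of the series were collected 7 days after treatment began. The labels do not give the agent that the control mice received, the sex, age or strain of the mice, or the markers and gates of the sort. Whether each of the 5 libraries of a group is 1 mouse is not given either, and the p-values here therefore cover only the variation among the libraries, part of which may be technical.

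Monocytes are blood leukocytes that leave the bone marrow, enter inflamed tissue and tumours with the help of the chemokine receptor CCR2, and can become macrophages there. Macrophages engulf and digest dying cells in lysosomes, present antigen on MHC class II molecules and shape the tissue with complement, cytokines, growth factors and proteases. In tumours both cell types are known to influence blood vessels, matrix and T cells. The comparison asks which surface receptors, transcription factors, metabolic enzymes and secreted factors separate the sorted populations in tumours that had no anti-PD-L1.

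Levels are CPM, read counts scaled to a common library total and composition, given as mean ± SD with n = 5 in each group. Differences are log2 fold changes, macrophages minus monocytes, from edgeR's quasi-likelihood test, with a standard error (SE) and a p-value adjusted by Benjamini-Hochberg over all 15390 genes tested. A gene was called at an adjusted p of 0.05. Of the genes tested, 3700 (24%) were higher and 3084 (20%) were lower in macrophages (44.1% in either direction), and the median over all of them was -0.0044. All 5 macrophage libraries lay above all 5 monocyte libraries for 14.3% of genes and below them for 10.8%. These shares are the background against which each list below is read. Depth was even, from 32243102 to 35560808 counts per control library, and 3 counts equal 0.093 CPM in the shallowest. Fold changes of at least 4 were seen for 308 genes higher and 387 genes lower in macrophages. Coordinates are those of the RefSeq annotation of GRCm38.p6. Named genes come from the rule given under the processing, and other members of a list are examples chosen after their values were seen.

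**Figure D1:**
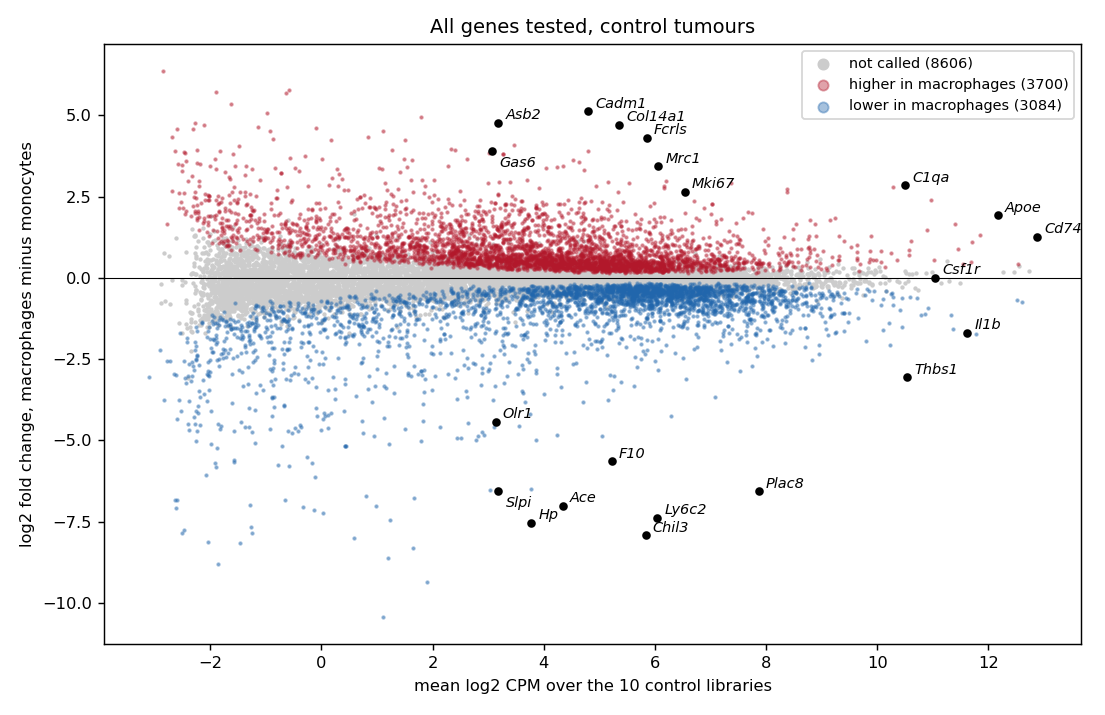
Log2 fold change of each gene (vertical axis, macrophages minus monocytes of control tumours) against its mean log2 CPM over the 10 control libraries (horizontal axis). Red points are the 3700 genes higher and blue points the 3084 genes lower in macrophages, grey points were not called, and black points mark genes described in the text. Ly6c2, Chil3, Hp and Ace lie below -7, while Cadm1 lies above 5 and Csf1r at 0.

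Markers of the sorted populations are given first. The gates of the sort are not given, so some of these markers may have been used in it. Their separation is therefore no independent check of identity. C1qa (Entrez 12259, chromosome 4, 136895916 to 136898844) encodes a chain of C1q, the recognition part of the classical complement pathway, and marks tissue macrophages. The 5 macrophage libraries, replicates 1 to 5, held 3962, 4617, 3621, 4751 and 3043 CPM of C1qa, and the 5 monocyte libraries held 618, 476, 428, 817 and 429.9 CPM. The groups did not overlap, and monocyte replicate 4 was the highest of its group (log2 fold change 2.85, SE 0.18, adjusted p = 7.47e-10). Cadm1 (Entrez 54725, chromosome 9, 47530170 to 47862280), which encodes a cell adhesion molecule of the immunoglobulin superfamily, stood at 160.5, 191, 213, 192 and 115 CPM in macrophages and at 6.40, 4.64, 3.53, 8.42 and 1.94 CPM in monocytes. Every macrophage library was far above every monocyte library, and macrophage replicate 5 was the lowest of its group (5.12, SE 0.32, adjusted p = 4.35e-10). In bulk samples, fewer cells of a type and less RNA per cell cannot be told apart, which holds for every level given here.

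Ly6c2 (Entrez 100041546, chromosome 15, 75108161 to 75112066) encodes Ly-6C, the surface antigen that defines classical monocytes. Its level was 8.96, 3.39, 7.13, 4.58 and 3.06 CPM in macrophages and 681, 1212, 506, 876 and 1276 CPM in monocytes, with no overlap (-7.39, SE 0.45, adjusted p = 4.10e-10). Chil3 (Entrez 12655, chromosome 3, 106147554 to 106167564), which encodes the secreted chitinase-like protein Ym1, was at 4.55, 2.56, 4.16, 3.34 and 5.98 CPM in macrophages and at 431, 782, 889.8, 469.8 and 2439 CPM in monocytes. Monocyte replicate 5 stood well above the other 4, and all monocyte libraries were above all macrophage libraries (-7.92, SE 0.61, adjusted p = 7.71e-09). Unique alignment can drop reads of near-identical genes, so Ly6c2 and its neighbour Ly6c1 (7.53 ± 5.09 against 12.9 ± 4.94 CPM, adjusted p = 0.333, and 0.0445 when paired as described below) are uncertain.

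Of 18 macrophage markers, 13 were higher and 1 was lower in macrophages. Mrc1, the mannose receptor, was at 232 ± 80.9 CPM in macrophages against 21.3 ± 9.09 CPM in monocytes (3.44, SE 0.33, adjusted p = 1.16e-07). Adgre1, which encodes the F4/80 antigen, was at 1071 ± 199 CPM in macrophages against 311 ± 57.5 CPM in monocytes (1.78, SE 0.14, adjusted p = 1.13e-08). Ms4a7, a membrane protein gene of macrophages, and Apoe, the apolipoprotein that carries cholesterol, were also higher (log2 fold changes 2.66 and 1.93). Not all lineage genes followed this order. Csf1r, the receptor for colony-stimulating factor 1, was at 2109.5 ± 219.8 CPM in macrophages against 2116 ± 354 CPM in monocytes, with a log2 fold change of -0.0041, SE 0.12 and an adjusted p of 0.982. In the labels each control macrophage library has a sample number next to that of 1 control monocyte library, and a second fit took these neighbours as pairs, here called the block. With the block 31.3% of all genes tested were higher and 29.2% lower, and counts with the block are read against these shares. Cd68 and Sirpa were not called, at 667 against 577 CPM and 864 against 696 CPM, and were higher with the block (adjusted p = 0.0133 and 0.000267). Sirpa was also higher without macrophage replicate 1 (0.0273) or monocyte replicate 5 (0.0329). Fcgr1, the high-affinity receptor for immunoglobulin G, was the marker that was lower in macrophages, at 679.9 ± 106 against 934 ± 248 CPM (-0.46, SE 0.15, adjusted p = 0.02). Its groups overlapped, and it was not called without macrophage replicate 5 (adjusted p = 0.0524) or monocyte replicate 2 (0.053) or 5 (0.0843).

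**Figure D2:**
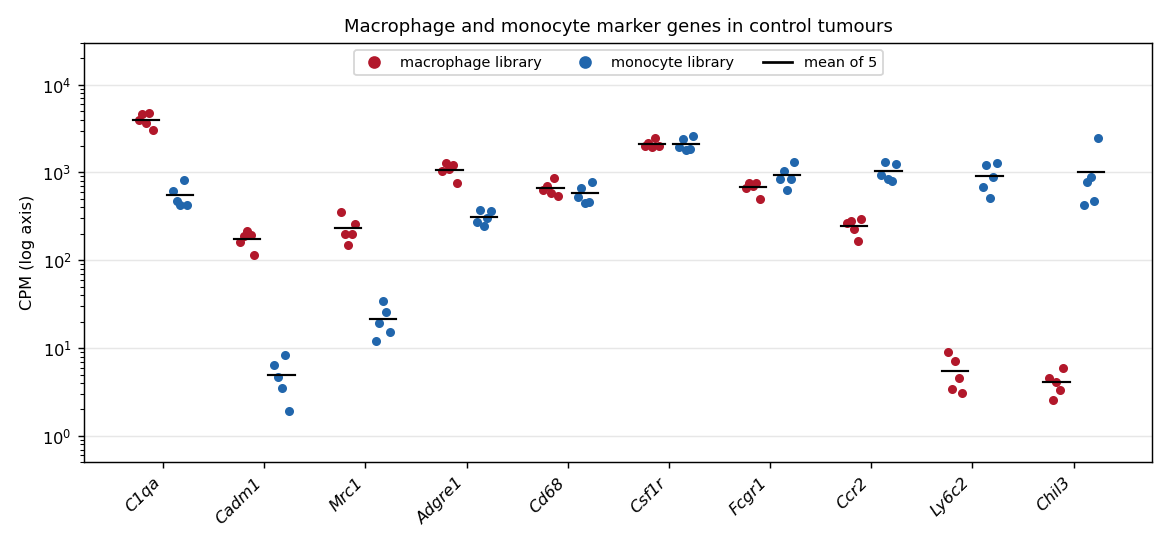
CPM on a log axis for 10 marker genes in each of the 5 macrophage libraries (red) and 5 monocyte libraries (blue) of control tumours, with the mean of each group as a black line. The groups lie apart for C1qa, Cadm1, Mrc1, Adgre1, Ccr2, Ly6c2 and Chil3 and overlap for Cd68, Csf1r and Fcgr1.

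Of 18 classical monocyte markers, 15 were lower in macrophages and 1, Ly6a, was higher, a call lost without macrophage replicate 2, 3 or 4 or monocyte replicate 3 or 5. Plac8, a small cysteine-rich protein gene used as a monocyte marker, was at 27.5 ± 20.3 CPM in macrophages against 2602 ± 775 CPM in monocytes (-6.57, SE 0.48, adjusted p = 4.01e-09). Ccr2 differed less, at 246 ± 51.9 CPM in macrophages against 1035 ± 241 CPM in monocytes (-2.07, SE 0.20, adjusted p = 1.40e-07), with no overlap between the groups. Genes of nonclassical monocytes, the cells that patrol vessel walls, were also present in the monocyte libraries. Of 12 such markers, 7 were lower and 2, Cd36 and Cd300e, were higher in macrophages (1 higher without the 6 control libraries that held most fibroblast marker RNA). Ace, the angiotensin-converting enzyme, was at 2.02 ± 1.43 CPM in macrophages against 264 ± 58.8 CPM in monocytes (-7.01, SE 0.45, adjusted p = 7.61e-10). Adgre4, an adhesion receptor related to F4/80, was at 0.856 ± 0.377 against 80.9 ± 23.6 CPM (-6.54, SE 0.40, adjusted p = 4.35e-10). Cx3cr1, the fractalkine receptor that is also a marker of nonclassical monocytes, went the other way and was higher in macrophages, at 868 ± 240.1 against 277 ± 82.1 CPM (1.65, SE 0.22, adjusted p = 6.54e-06).

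The 3 genes of the C1q chains lie side by side on chromosome 4 and differed by like amounts. The deposited nRPKM values, which are scaled by gene length, put the chains at like levels: 3560 ± 669 for C1qa, 4255 ± 778 for C1qb and 2917 ± 568 for C1qc in macrophages. In monocytes the nRPKM values were 505 ± 145, 835 ± 223 and 434 ± 103. The log2 fold changes of the 3 chains were 2.85, 2.39 and 2.79. The 250 bases before the start of C1qb and Chil3 are shown because these genes are among those that define the 2 ends of the comparison, from the RefSeq promoter table for GRCm38.p6, 5′ to 3′. None is printed for C1qa and C1qc. Capitals mark matches, on either strand, to the letters GAGGAA, a core that the myeloid factor PU.1 is known to bind, or TGCTGA, part of the MAF recognition element.
C1qb (chr4:136886201-136886450, minus strand): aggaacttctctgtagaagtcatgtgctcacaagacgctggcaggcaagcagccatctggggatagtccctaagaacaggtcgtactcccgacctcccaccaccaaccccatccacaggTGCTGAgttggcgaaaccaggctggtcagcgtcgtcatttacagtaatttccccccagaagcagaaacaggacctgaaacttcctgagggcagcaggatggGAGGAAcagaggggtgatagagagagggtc
Chil3 (chr3:106167565-106167814, minus strand): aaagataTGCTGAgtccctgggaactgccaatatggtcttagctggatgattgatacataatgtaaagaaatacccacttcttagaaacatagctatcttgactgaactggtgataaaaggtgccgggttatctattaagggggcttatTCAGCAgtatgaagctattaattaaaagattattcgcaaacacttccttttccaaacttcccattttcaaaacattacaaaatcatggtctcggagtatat
C1qb held 1 match to each motif, and Chil3 held 2 matches to TGCTGA. Among all 27025 promoters of the table, cut to the same 250 bases, of which 72.5% end at the annotated start of the gene, 23.1% held GAGGAA and 15.8% held TGCTGA, so a match is a description and not a binding site.

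Surface receptors differed in both directions. Of 189 receptor genes tested, 57 (30.2%) were higher and 77 (40.7%) were lower in macrophages, against 24% and 20% of all genes. The gene with the smallest p among those higher was Itga9 (Entrez 104099, chromosome 9, 118606709 to 118901003), the integrin alpha 9 chain, which binds matrix proteins such as tenascin. Its levels were 147, 219.7, 188, 218 and 173 CPM in macrophages and 21.6, 31.2, 29.7, 24.6 and 32.1 CPM in monocytes, without overlap (2.76, SE 0.15, adjusted p = 8.77e-11). Among those lower it was Olr1 (Entrez 108078, chromosome 6, 129479150 to 129507350), the receptor LOX-1 for oxidized low-density lipoprotein. It was at 1.73, 2.11, 1.56, 1.56 and 2.65 CPM in macrophages and at 43.2, 50.5, 40.4, 20.8 and 53.7 CPM in monocytes, where replicate 4 was the lowest (-4.44, SE 0.23, adjusted p = 6.60e-11).

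Receptors for cytokines and growth factors were the receptor list most often lower in macrophages. Of 33 tested, 22 were lower and 3 were higher, with a median log2 fold change of -0.80. Csf2rb, the shared beta chain for GM-CSF, interleukin 3 and interleukin 5, was at 191 ± 22.9 CPM in macrophages against 512 ± 117 CPM in monocytes (-1.42, SE 0.14, adjusted p = 2.53e-07). Tnfrsf1a, the main receptor for tumour necrosis factor, was at 215 ± 17.2 against 499 ± 120.1 CPM (-1.21, SE 0.13, adjusted p = 3.13e-07). Il17ra, Il6ra and Tnfrsf1b, receptors for interleukin 17, interleukin 6 and tumour necrosis factor, were lower as well (log2 fold changes -1.87, -1.01 and -1.13). The 3 genes higher in macrophages encode receptors of the TGF-beta superfamily. Tgfbr2 was at 337 ± 42.9 against 184 ± 13.4 CPM (0.87, SE 0.10, adjusted p = 8.29e-07), Tgfbr1 was at 426 ± 67.4 against 259 ± 18.7 CPM (0.72, SE 0.12, adjusted p = 7.58e-05), and Acvrl1 had a log2 fold change of 0.37. Acvrl1 lost the call without any 1 of macrophage replicates 1 to 4 or monocyte replicates 3 and 4 (adjusted p between 0.0561 and 0.0866).

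Chemoattractant receptors were split, with 9 of 29 higher, 10 lower and a median of 0.04. Gpr34, a receptor for lysophosphatidylserine known from microglia, was at 32.9 ± 15.2 CPM in macrophages against 2.30 ± 1.27 CPM in monocytes (3.83, SE 0.40, adjusted p = 3.60e-07). C3ar1, the receptor for the complement fragment C3a, was higher (log2 fold change 0.95). Ptafr, the receptor for platelet-activating factor, was at 32.4 ± 4.78 CPM in macrophages against 155 ± 54.4 CPM in monocytes (-2.25, SE 0.20, adjusted p = 4.14e-08). Cxcr4, the receptor for CXCL12, was lower in macrophages too (-1.35, SE 0.18).

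Receptors that bind antibodies, debris and dying cells were more often higher in macrophages, 11 of 28 against 4 lower and 13 not called (median 0.28). Fcgrt, the neonatal Fc receptor that recycles antibodies, was at 96.7 ± 26.7 CPM in macrophages against 30.5 ± 9.63 CPM in monocytes (1.66, SE 0.18, adjusted p = 4.77e-07). The other receptor genes for immunoglobulin G were mixed. Fcgr4 was higher with overlapping groups (0.67, SE 0.20), Fcgr2b and Fcgr3 were not called (-0.05 and -0.08), and Fcgr1 was lower (-0.46, SE 0.15). Mertk, a receptor for dying cells bridged by GAS6, was at 85.7 ± 14.5 against 30.7 ± 19.0 CPM (1.48, SE 0.27, adjusted p = 1.75e-04), and monocyte replicate 4, at 63.6 CPM, stood above the other monocyte libraries at 19.0 to 30.4 CPM. The groups still did not overlap. Siglec1, a sialic acid receptor, and Folr2, a folate receptor, were higher (log2 fold changes 1.19 and 2.43). Scarb1, the receptor for high-density lipoprotein, was lower, at 79.5 ± 14.7 against 158 ± 12.4 CPM (-0.99, SE 0.13, adjusted p = 3.74e-06).

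Integrins and other adhesion molecules divided 11 higher to 16 lower among 32, with a median of -0.48. Besides Itga9 and Cadm1, the tetraspanin gene Cd81 was higher in macrophages, at 470.4 ± 75.7 against 62.2 ± 21 CPM (2.92, SE 0.22). Vcam1 was also higher (2.22, SE 0.55), with a wide spread among the macrophage libraries, 166 ± 139 against 35.7 ± 23.2 CPM. The lower group held Adgre5, which encodes CD97 (-3.68, SE 0.28), Cd44, the hyaluronan receptor (-1.57, SE 0.15), and the leukocyte integrin genes Itgb2, Itga4 and Itgb7 (log2 fold changes -0.82, -0.91 and -1.27).

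Pattern recognition receptors were called 13 higher and 12 lower among 32. Of 12 Toll-like receptor genes 5 were higher, 3 were lower and 4, Tlr7, Tlr9, Tlr11 and Tlr13, were not called. Tlr12, a receptor of endosomes for profilin of parasites, was at 64.8 ± 19.6 CPM in macrophages against 6.03 ± 2.24 CPM in monocytes (3.42, SE 0.30, adjusted p = 3.88e-08). Tlr3, the endosomal receptor for double-stranded RNA, was at 56.5 ± 9.34 against 20.3 ± 1.48 CPM (1.48, SE 0.15, adjusted p = 1.87e-07). Of the receptors that act at the cell surface on bacterial products, Tlr2 (-0.64), Tlr5 (-1.47) and Tlr6 (-0.52) were lower in macrophages, while Tlr4, the receptor for endotoxin, was higher (0.57). Tlr1 of the same surface (0.48, adjusted p = 0.0297) and the endosomal Tlr8 (0.71) were also higher. Tlr1 lost the call without macrophage replicate 2, 3 or 4 or monocyte replicate 3 or 4 (adjusted p between 0.0825 and 0.106). Among C-type lectins, Clec4e, the receptor Mincle for fungal and mycobacterial glycolipids, was at 66.2 ± 16.6 CPM in macrophages against 399 ± 122 CPM in monocytes (-2.59, SE 0.22, adjusted p = 2.59e-08). Clec7a, the beta-glucan receptor Dectin-1, was at 379 ± 108 against 879.7 ± 88.2 CPM (-1.22, SE 0.16, adjusted p = 4.92e-06), and the cytosolic receptor genes Nod1 and Nod2 were lower (log2 fold changes -1.48 and -1.78).

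Paired and inhibitory myeloid receptors were called 10 higher and 13 lower among 35. Slamf9, of the SLAM family, was at 436 ± 94.8 CPM in macrophages against 109.5 ± 21.3 CPM in monocytes (1.99, SE 0.18, adjusted p = 7.49e-08). Trem2, a lipid-sensing receptor, was at 282 ± 60.3 against 114 ± 17.7 CPM (1.30, SE 0.15, adjusted p = 1.35e-06), whereas its relatives Trem1 (-1.54, SE 0.15) and Trem3 (-1.92, SE 0.16, adjusted p = 2.02e-08) were lower in macrophages. Trem3 is also one of the neutrophil markers described below. Cd80, a ligand that costimulates T cells, was at 30.3 ± 4.63 CPM in macrophages against 115 ± 30.9 CPM in monocytes (-1.92, SE 0.15, adjusted p = 6.40e-09). Cd274, which encodes PD-L1, was at 231 ± 70.7 against 322 ± 82.1 CPM (-0.48, SE 0.24, adjusted p = 0.109). It was lower in macrophages with the block (adjusted p = 6.66e-04), without macrophage replicate 3 (0.0224) and without monocyte replicate 4 (0.0444).

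Transcription factors were mostly lower in macrophages. Of 92 tested, 9 were higher and 59 were lower, with a median log2 fold change of -0.60. The factor with the smallest p among those higher was Batf3 (Entrez 381319, chromosome 1, 191098414 to 191108943), an AP-1 family member best known for the development of cross-presenting dendritic cells. Its levels were 10.4, 19.1, 15.8, 13.9 and 12.6 CPM in macrophages and 6.2, 6.24, 5.90, 5.42 and 5.61 CPM in monocytes, low in both but without overlap (1.29, SE 0.14, adjusted p = 5.23e-07). Of 14 other dendritic cell markers 3 were higher and 6 were lower. Without Bst2, which many cells make in response to interferon and which held most of the sum, the other 13 summed to 36.95 to 106 CPM in macrophages and to 63.3 to 132 CPM in monocytes. Xcr1 (18.1 against 4.42 CPM) and Clec9a (10.4 against 3.91 CPM), which mark the Batf3-dependent dendritic cells, were higher in the macrophage libraries with overlapping groups, and their part in the Batf3 value was not tested.

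Among those lower the smallest p belonged to Cebpb (Entrez 12608, chromosome 2, 167688915 to 167690432), a factor of inflammatory and emergency myeloid gene expression. Its levels were 140.1, 119.8, 159.7, 129 and 135 CPM in macrophages and 574, 594, 455, 492 and 789 CPM in monocytes, without overlap (-2.09, SE 0.17, adjusted p = 1.22e-08). The related Cebpa, which drives early myeloid commitment, was higher in macrophages at 192 ± 35.5 against 118 ± 30.7 CPM (0.70, SE 0.16), although its groups overlapped. Of 30 factors of the monocyte and myeloid lineages, 18 were lower and 4 were higher. Nr4a1 and Klf4, which are needed for nonclassical and for inflammatory monocytes respectively, were lower (log2 fold changes -2.05, SE 0.21 and -1.76, SE 0.21). Nr4a1 is also among the genes induced by tissue dissociation described below, and the part of dissociation in its value was not tested. Klf13, a zinc finger factor, was at 107 ± 12.4 against 239 ± 43.4 CPM (-1.16, SE 0.11, adjusted p = 1.42e-07), and Mef2c, a MADS-box factor, was higher at 88.7 ± 7.91 against 55.3 ± 8.03 CPM (0.68, SE 0.12, adjusted p = 8.63e-05). The master factor Spi1, which encodes PU.1, was at 323 ± 65.4 against 448 ± 123 CPM (-0.47, SE 0.16, adjusted p = 0.0215). That call was lost without macrophage replicate 1, 3 or 5 or monocyte replicate 2 or 5 (adjusted p between 0.0535 and 0.0832). Irf8 was at 348 against 410.0 CPM (adjusted p = 0.286, and 0.0113 with the block).

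Of 29 factors tied to macrophage identity or lipid sensing, 5 were higher and 15 were lower. Bhlhe41 and Bhlhe40 are paralogous repressors that moved in opposite directions. Bhlhe41 was at 26.6 ± 10.48 CPM in macrophages against 3.43 ± 1.25 CPM in monocytes (2.95, SE 0.35, adjusted p = 1.39e-06), and Bhlhe40 was at 135 ± 21.2 CPM in macrophages against 393 ± 81.2 CPM in monocytes (-1.54, SE 0.15, adjusted p = 1.47e-07). Etv5, an ETS factor, was at 50.1 ± 8.36 against 25 ± 1.32 CPM (1.01, SE 0.12, adjusted p = 1.17e-06), and Pparg, the fatty acid receptor of lipid-handling macrophages, was also higher (1.40, SE 0.34). Ahr, the receptor for aromatic compounds, was at 14.9 ± 3.93 against 39.4 ± 9.74 CPM (-1.41, SE 0.18, adjusted p = 4.90e-06). Mitf, a lysosomal and melanocyte factor, was not called (-0.06). Without the 6 control libraries that held most fibroblast marker RNA, 3 factors of this list were higher and 18 lower.

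The factors that respond to signals formed the list with the most one-sided count among the transcription factors, with 26 of 33 lower in macrophages and 0 higher (median -0.70). Jund was at 135 ± 17.6 CPM in macrophages against 328 ± 50.1 CPM in monocytes (-1.28, SE 0.12, adjusted p = 1.27e-07) and Junb at 1198 ± 143 against 2666 ± 593 CPM (-1.15, SE 0.14, adjusted p = 1.57e-06), both subunits of AP-1. Hif1a, the factor of the response to low oxygen, and Irf1, an interferon regulatory factor, were lower (log2 fold changes -1.29, SE 0.16 and -1.19, SE 0.17). The 7 not called included Egr1, whose levels were 313 against 314 CPM (adjusted p = 0.991). Of 16 genes known to be induced when tissue is dissociated, among them Fos, Jun, Junb, Atf3 and Nr4a1, 10 were lower in macrophages and 0 were higher. Their summed level was 6591 to 9573 CPM in the macrophage libraries and 12243 to 20878 CPM in the monocyte libraries, and their part in the factor list was not tested.

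**Figure D3:**
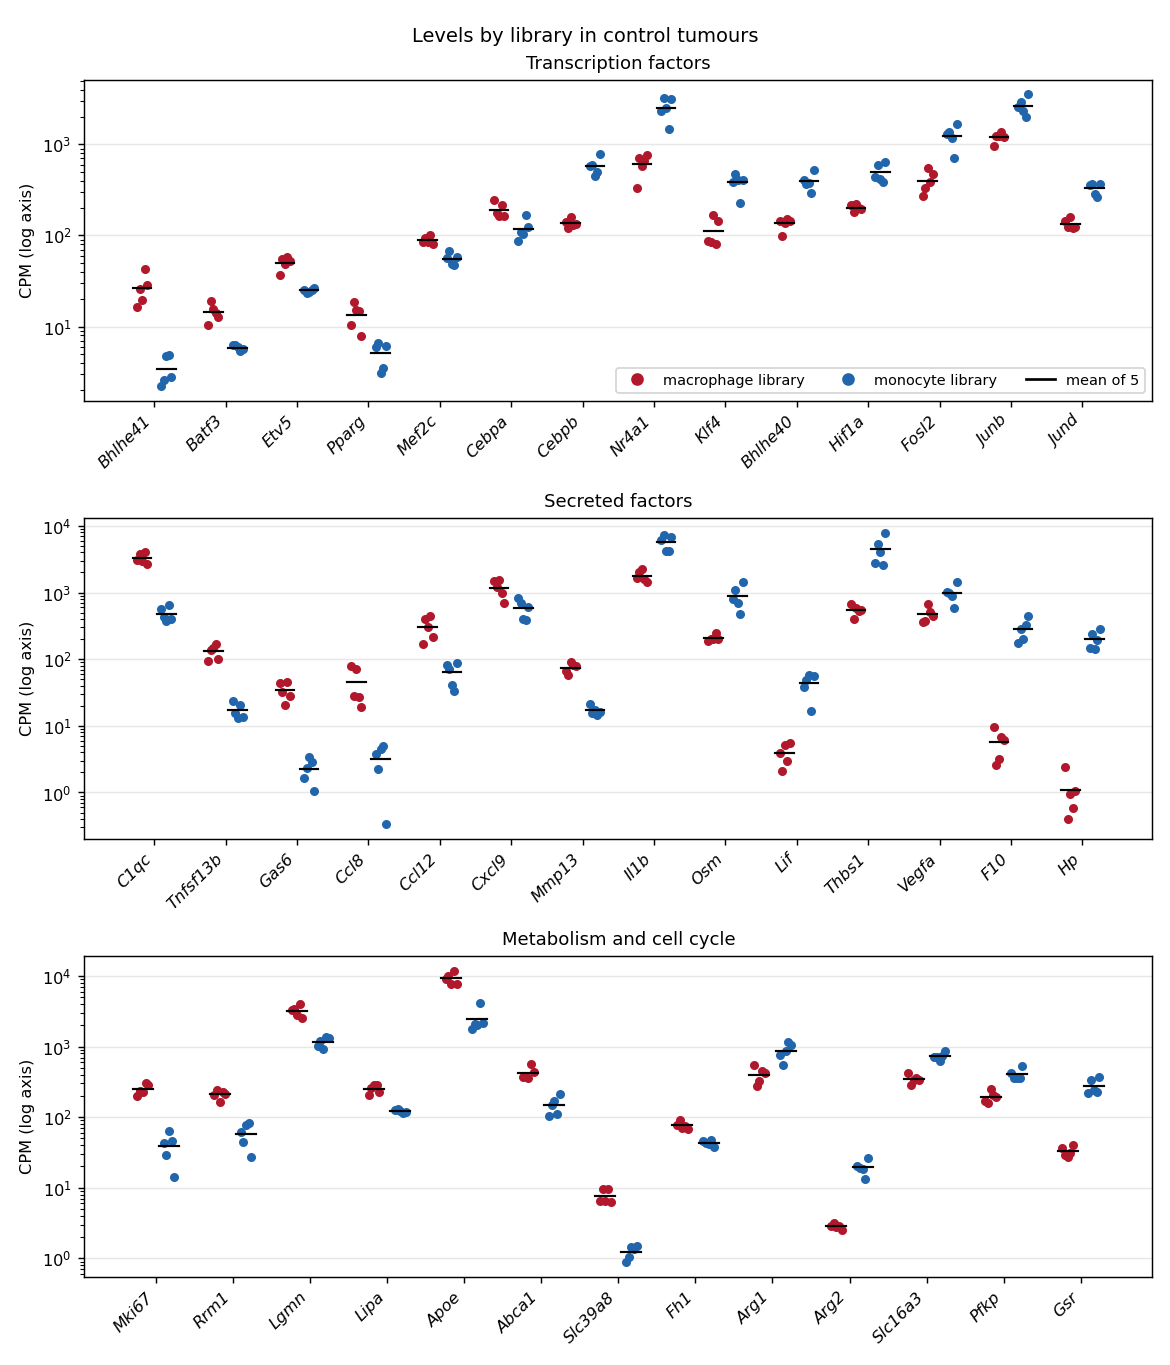
CPM on a log axis for transcription factors (top), secreted factors (middle) and genes of metabolism and the cell cycle (bottom) in each macrophage library (red) and monocyte library (blue) of control tumours, with group means as black lines. Batf3 and Gsr lie fully apart in opposite directions, whereas Cebpa, Vegfa, Cxcl9 and Arg1 overlap.

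Metabolic genes were divided by pathway. Of 241 tested, 73 (30.3%) were higher and 62 (25.7%) were lower in macrophages, against 24% and 20% of all genes. Lysosomal genes, which digest what the cell takes up, were called 20 higher and 1 lower among 35, with a median of 0.42. Lgmn, the lysosomal asparaginyl endopeptidase, was at 3219 ± 571 CPM in macrophages against 1157 ± 183 CPM in monocytes (1.48, SE 0.13, adjusted p = 4.97e-08). Acp5, the tartrate-resistant acid phosphatase, was at 278 ± 45.8 against 78.4 ± 13.4 CPM (1.82, SE 0.18, adjusted p = 1.90e-07). The cathepsin genes Ctsb, Ctsd and Ctsz were also higher (log2 fold changes 0.89, 0.83 and 0.48), while Ctsl was not called (0.15). Cln3, the gene of juvenile Batten disease, was the lower member, at 64.7 ± 7.11 against 86.9 ± 16.2 CPM (-0.43, SE 0.11, adjusted p = 0.00505). Without macrophage replicate 2 or 4 or monocyte replicate 4, 2 members were lower, and without monocyte replicate 3, 3 were.

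Genes of lipid uptake, storage and efflux were called 10 higher and 7 lower among 29 (14 and 11 with the block). Without macrophage replicate 2, 3 or 5 or monocyte replicate 2 or 5, 4 members were lower. Lipa, the acid lipase that frees cholesterol from lipoproteins, was at 253 ± 37.5 CPM in macrophages against 122 ± 6.65 CPM in monocytes (1.05, SE 0.09, adjusted p = 4.49e-08). Hexa, a lysosomal hexosaminidase chain, was at 601 ± 79.2 against 316 ± 33.4 CPM (0.93, SE 0.10, adjusted p = 5.95e-07). Apoe was at 9269 ± 1759 CPM in macrophages against 2433 ± 932 CPM in monocytes (1.93, SE 0.22, adjusted p = 9.49e-07), and Abca1, the cholesterol exporter that loads it, was higher as well (1.49, SE 0.21). Hpgd, which inactivates prostaglandins, was at 1.45 ± 0.847 against 10.4 ± 3.38 CPM (-2.83, SE 0.39, adjusted p = 9.94e-06). Apoc1, a further apolipoprotein, was at 0.282 ± 0.137 against 2.91 ± 1.39 CPM (-3.36, SE 0.46, adjusted p = 7.84e-06), with 5 to 17 counts in each macrophage library.

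Sterol and fatty acid synthesis went the other way, with 3 of 29 higher and 12 lower (median -0.33). Mvd, an enzyme of the mevalonate pathway, was at 18.1 ± 3.23 CPM in macrophages against 32.5 ± 3.73 CPM in monocytes (-0.84, SE 0.11, adjusted p = 6.21e-06). Fads1, a fatty acid desaturase, was at 166 ± 22.3 against 74.5 ± 38.3 CPM (1.15, SE 0.27, adjusted p = 0.0019), and Dhcr7, the last enzyme of cholesterol synthesis, was at 34.4 ± 3.59 against 21.2 ± 5.27 CPM (0.70, SE 0.16, adjusted p = 0.00143).

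Glycolytic genes were called 2 higher and 14 lower among 26, with a median of -0.44 (4 higher and 16 lower with the block). Slc16a3, the lactate exporter MCT4, was at 347 ± 49.6 CPM in macrophages against 733 ± 90.6 CPM in monocytes (-1.08, SE 0.13, adjusted p = 2.03e-06). Pfkp, a phosphofructokinase, was at 195 ± 34.8 against 407 ± 78.2 CPM (-1.06, SE 0.14, adjusted p = 5.11e-06), and the glucose transporter gene Slc2a1 and the hexokinase gene Hk2 were lower (log2 fold changes -0.95 and -0.71). Ldha and Aldoa were not called (-0.16 and -0.13). Gapdh was listed at 3.81 against 6.93 CPM, and its value is uncertain because it has near-identical copies and only uniquely aligned reads were counted. The 2 higher genes were Bpgm, at 14.6 ± 1.94 against 10.7 ± 1.75 CPM (0.45, SE 0.12, adjusted p = 0.00356), and Aldoc, at 53.7 ± 5.81 against 37.1 ± 9.78 CPM (0.53, SE 0.18, adjusted p = 0.0185). Aldoc lost the call without monocyte replicate 2 (0.47, adjusted p = 0.0534).

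The citric acid cycle and respiratory chain showed small differences, with 12 of 39 higher and 5 lower (19 and 5 with the block) and a median of 0.15. Without the block the shares were 30.8% and 12.8%, against 24% and 20% of all genes. Fh1, which encodes fumarase, was at 76.7 ± 9.23 against 42.9 ± 3.74 CPM (0.84, SE 0.10, adjusted p = 2.04e-06), and Idh3a, a subunit of the mitochondrial isocitrate dehydrogenase, was at 67.8 ± 6.82 against 47.2 ± 4.57 CPM (0.52, SE 0.09, adjusted p = 1.67e-04). Idh1, which encodes a cytosolic isocitrate dehydrogenase, was lower, at 52.4 ± 4.90 against 81.5 ± 10.9 CPM (-0.64, SE 0.12, adjusted p = 3.32e-04), as was Ndufa4, at 37.8 ± 15.8 against 77.0 ± 13.1 CPM (-1.02, SE 0.23, adjusted p = 0.00115). Transcripts of the mitochondrial genome were called 3 higher (30%, against 24% of all genes) and 0 lower among 10. Of these transcripts 0 were called without macrophage replicate 1 or monocyte replicate 1. Macrophage replicate 1 held the most of them, 17030 CPM in sum against 5665 to 9206 CPM in the other macrophage libraries and 4924 to 9145 CPM in the monocyte libraries. COX2 (0.729 against 0.506 CPM), COX3 (0.398 against 0.244 CPM) and ATP6 (0.396 against 0.235 CPM) were low, while COX1 was at 2613 against 1777 CPM. Whether unique alignment dropped reads of these genes was not tested.

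Nucleotide and one-carbon metabolism was called 14 higher and 2 lower among 25 (median 0.45). Rrm1, a subunit of ribonucleotide reductase, was at 211 ± 30.2 CPM in macrophages against 58.3 ± 22.3 CPM in monocytes (1.86, SE 0.22, adjusted p = 1.44e-06), and Paics, an enzyme of purine synthesis, was at 134 ± 22.1 against 64.6 ± 16 CPM (1.05, SE 0.15, adjusted p = 1.18e-05). Tyms and Tk1, which make thymidine nucleotides, were higher (log2 fold changes 2.05 and 1.82). Cell cycle genes were also higher in macrophages, as given below, and the part of proliferation in this list was not tested. The 2 lower genes belong to the pentose phosphate pathway. Taldo1 was at 259 ± 35.1 against 415 ± 96.1 CPM (-0.68, SE 0.13, adjusted p = 3.87e-04), and Pgd was at 410.5 ± 42.9 against 499 ± 75.8 CPM (-0.28, SE 0.11, adjusted p = 0.0442). Pgd lost the call without macrophage replicate 1, 3 or 5 or monocyte replicate 2 or 5 (adjusted p between 0.068 and 0.141).

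Arginine, itaconate and tryptophan metabolism was called 10 lower and 2 higher among 18, with a median of -0.85. Both arginase genes were lower in macrophages. Arg2, the mitochondrial form, was at 2.84 ± 0.226 CPM in macrophages against 19.6 ± 4.84 CPM in monocytes (-2.78, SE 0.28, adjusted p = 2.46e-07), and Arg1, the form known from suppressive myeloid cells, was at 402 ± 105 CPM in macrophages against 877 ± 246 CPM in monocytes with overlap (-1.13, SE 0.38, adjusted p = 0.0202). Nos2, which encodes the nitric oxide synthase of activated macrophages and competes for arginine, was lower too, at 88.0 ± 28.7 against 189 ± 74.8 CPM (-1.10, SE 0.35, adjusted p = 0.015). It was not called without monocyte replicate 5 (-0.87, adjusted p = 0.0575). Gch1, which supplies the cofactor of nitric oxide synthase, was at 32.6 ± 8.65 against 125 ± 45.4 CPM (-1.94, SE 0.21, adjusted p = 4.11e-07), and Acod1, which makes itaconate, was lower (log2 fold change -0.96, SE 0.30). Both higher calls were lost when 1 library was left out. Slc7a2, an arginine transporter (83.8 ± 26.3 against 46.3 ± 13.5 CPM, 0.86, SE 0.34, adjusted p = 0.0458), lost the call without macrophage replicate 3, 4 or 5 or monocyte replicate 1, 2 or 4 (adjusted p between 0.0775 and 0.13). Sms, spermine synthase (5.86 ± 0.664 against 4.0 ± 1.27 CPM, 0.55, SE 0.18, adjusted p = 0.0191), lost it without macrophage replicate 2 or 4 or monocyte replicate 1 or 5 (between 0.0524 and 0.0612).

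Of 19 genes of iron and haem handling, 7 were higher and 3 were lower. Slc39a8 (Entrez 67547, chromosome 3, 135816882 to 135888572), a zinc and iron importer, had the smallest p among the metabolic genes that were higher. Its levels were 6.44, 9.72, 6.53, 9.66 and 6.32 CPM in macrophages and 0.874, 1.03, 1.45, 1.36 and 1.47 CPM in monocytes, with no overlap (2.64, SE 0.23, adjusted p = 3.93e-08). Slc11a2, the iron transporter DMT1, was at 54.1 ± 6.13 against 34.8 ± 4.93 CPM (0.64, SE 0.09, adjusted p = 2.11e-05). Lcn2, a siderophore-binding protein of neutrophil granules, had 13 counts over all macrophage libraries and 1932 over all monocyte libraries (-7.23, adjusted p = 5.17e-07). Steap4, a metalloreductase, had 43 and 280 counts (-2.77, SE 0.68, adjusted p = 0.00243).

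Genes of the phagocyte oxidase and redox balance were called 3 higher and 8 lower among 21, and 1 was higher without macrophage replicate 2 or 4 or monocyte replicate 4. Gsr (Entrez 14782, chromosome 8, 33653238 to 33698162), the glutathione reductase, had the smallest p of all metabolic genes. Its levels were 36, 28.8, 27.3, 30.6 and 40.4 CPM in macrophages and 222, 332, 241, 230.3 and 374 CPM in monocytes, so that the lowest monocyte library was far above the highest macrophage library (-3.10, SE 0.18, adjusted p = 1.43e-10). Slc7a11, the cystine importer, and Sod2, the mitochondrial superoxide dismutase, were lower (log2 fold changes -1.93, SE 0.35 and -1.19, SE 0.17). Prdx1, a peroxiredoxin, was higher at 489 ± 104 against 299.7 ± 39.3 CPM (0.71, SE 0.16, adjusted p = 0.00108). Cat, catalase, was at 76.1 ± 8.76 against 61.8 ± 6.99 CPM (0.30, SE 0.09, adjusted p = 0.0124) and lost the call without macrophage replicate 2, 3 or 4 or monocyte replicate 4 (adjusted p between 0.0573 and 0.106).

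**Figure D4:**
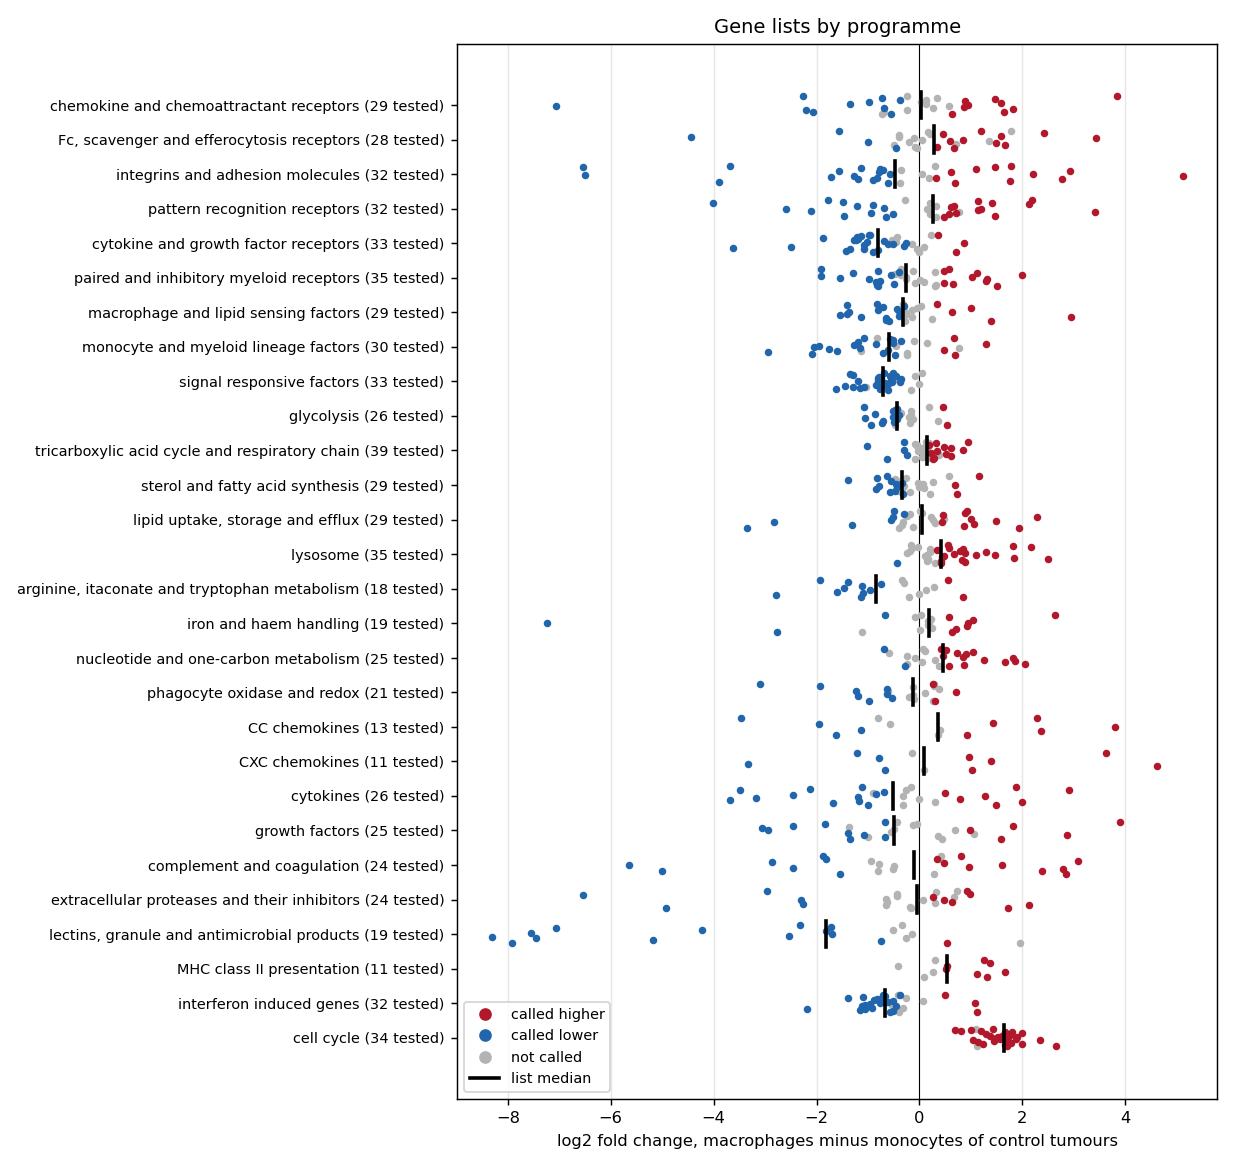
Log2 fold changes (macrophages minus monocytes of control tumours) of the tested members of each gene list, with members called higher in red, called lower in blue, not called in grey, and the list median as a black bar. The cell cycle list lies to the right with 32 of 34 members called higher, and the signal responsive factors lie to the left with 26 of 33 called lower.

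The lists of secreted factors also hold some genes of membrane or intracellular proteins, among them Plaur, Adam10 and Serpinb9. Members of these lists differed in both directions, with 39 of 142 higher and 54 lower in macrophages. C1qc (Entrez 12262, chromosome 4, 136889801 to 136892936) had the smallest p among those higher, with 3101, 3849.6, 2936, 4081 and 2669 CPM in macrophages and 559.9, 430.0, 368, 653 and 402 CPM in monocytes (2.79, SE 0.17, adjusted p = 2.74e-10). The groups did not overlap. Hp (Entrez 15439, chromosome 8, 109575128 to 109579172), which encodes the haemoglobin-binding plasma protein haptoglobin, had the smallest p among those lower. It was at 2.38, 0.399, 0.936, 0.576 and 1.07 CPM in macrophages and at 149, 239.7, 142, 197 and 281 CPM in monocytes (-7.54, SE 0.41, adjusted p = 9.86e-11), so that it was near absent from every macrophage library.

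Complement and coagulation genes were called 9 higher and 7 lower among 24 (12 and 11 with the block). Besides the C1q chains, C4b of the classical pathway was higher (log2 fold change 1.61), while C3, the central component of the cascade, was lower at 250.1 ± 57.4 against 730.0 ± 202 CPM (-1.55, SE 0.26). Of the clotting factors, F10, coagulation factor X, was at 5.70 ± 2.91 CPM in macrophages against 286 ± 107 CPM in monocytes (-5.65, SE 0.46, adjusted p = 1.70e-08), and F5, F7 and F13a1 were lower (log2 fold changes -5.00, -2.46 and -2.86). Plaur, the urokinase receptor, was at 232 ± 52.2 against 816 ± 195 CPM (-1.82, SE 0.19, adjusted p = 3.36e-07). Without the 6 control libraries that held most fibroblast marker RNA, 7 were higher and 11 lower.

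Among CC chemokines 5 of 13 were higher and 4 lower. Ccl12, Ccl7 and Ccl8, which attract monocytes and lymphocytes, were higher in macrophages. Ccl12 was at 307 ± 116 CPM in macrophages against 63.3 ± 24.5 CPM in monocytes (2.28, SE 0.29, adjusted p = 2.91e-06), Ccl8 was at 45.1 ± 27.8 against 3.18 ± 1.89 CPM (3.81, SE 0.55, adjusted p = 1.60e-05), and Ccl7 differed by 2.36, SE 0.38. Ccl2, the main ligand of CCR2, was not called, at 355 ± 97.3 against 276 ± 54.3 CPM. Ccl6 and Ccl9, related chemokines of rodents, were lower at 116 ± 33.3 against 361 ± 73.2 CPM (-1.63, SE 0.24, adjusted p = 1.58e-05) and 181 ± 66.0 against 395 ± 95.8 CPM (-1.13, SE 0.23, adjusted p = 6.07e-04).

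The CXC chemokines were called 5 higher and 4 lower among 11, and the ligands of the T cell receptor CXCR3 did not move together. Cxcl9 was higher in macrophages (1.02, SE 0.23, adjusted p = 0.00145), while Cxcl10 (-0.78, SE 0.27, adjusted p = 0.0248) and Cxcl11 (-1.21, SE 0.23, adjusted p = 2.37e-04) were lower. Cxcl10 lost the call without macrophage replicate 1 or monocyte replicate 1, 2 or 5 (adjusted p between 0.0559 and 0.0825). Cxcl14 was at 129.7 ± 29.9 CPM in macrophages against 49.3 ± 2.82 CPM in monocytes (1.39, SE 0.17, adjusted p = 2.20e-06). Cxcl13, which attracts B cells, was at 4.18 ± 1.68 against 0.167 ± 0.0265 CPM (4.62, SE 0.51, adjusted p = 5.98e-07), with 5 to 7 counts in each monocyte library. Cxcl3, a neutrophil attractant, was at 0.722 ± 0.173 against 7.36 ± 4.84 CPM (-3.34, SE 0.68, adjusted p = 5.40e-04).

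Cytokines were called 7 higher and 12 lower among 26. Tnfsf13b, the B cell survival factor BAFF, was at 131 ± 32.5 CPM in macrophages against 17.3 ± 4.61 CPM in monocytes (2.91, SE 0.20, adjusted p = 1.41e-09). Ebi3, a subunit of interleukins 27 and 35, was at 44.0 ± 5.91 against 18.2 ± 1.53 CPM (1.28, SE 0.10, adjusted p = 6.40e-09), and Il12b, a subunit of interleukins 12 and 23, was higher at 7.51 ± 3.42 against 1.89 ± 0.778 CPM (1.99, SE 0.35). Of the interleukin 6 family, Lif was at 3.89 ± 1.40 CPM in macrophages against 43.6 ± 16.9 CPM in monocytes (-3.48, SE 0.33, adjusted p = 1.13e-07), Osm was at 206 ± 22.4 CPM in macrophages against 896 ± 366 CPM in monocytes (-2.12, SE 0.20, adjusted p = 9.94e-08), and Il6 itself was lower (log2 fold change -3.67, SE 0.38). Il1b was abundant in both populations, at 1795 ± 327 CPM in macrophages against 5751 ± 1465 CPM in monocytes (-1.68, SE 0.18, adjusted p = 5.53e-07), with no overlap. Spp1, osteopontin, was at 419.7 ± 138 against 906 ± 175 CPM (-1.11, SE 0.28, adjusted p = 0.0033). Tnf was not called, at 296 ± 127 against 239 ± 76.8 CPM (adjusted p = 0.409, and 0.0343, higher in macrophages, with the block).

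Growth factors were called 5 higher and 9 lower among 25 (9 and 12 with the block, 9 and 10 without the same 6 libraries). Gas6, the bridge between dying cells and MERTK, was at 34.3 ± 10.8 CPM in macrophages against 2.27 ± 0.938 CPM in monocytes (3.90, SE 0.34, adjusted p = 3.88e-08). Pdgfb, which recruits pericytes and fibroblasts, was at 116 ± 34.5 against 38.5 ± 11.1 CPM (1.59, SE 0.21, adjusted p = 7.38e-06), and Igf1, insulin-like growth factor, was higher from a low level (2.87, SE 0.55). Thbs1, which encodes the matrix protein thrombospondin 1, was at 544 ± 100.2 CPM in macrophages against 4541 ± 2206 CPM in monocytes (-3.06, SE 0.26, adjusted p = 2.59e-08). Sema4a, a semaphorin, was at 101 ± 10.3 against 358 ± 87.6 CPM (-1.83, SE 0.18, adjusted p = 1.24e-07). Vegfa, the main growth factor of blood vessels, and Tgfb1 were lower (log2 fold changes -1.07, SE 0.20 and -1.34, SE 0.17), and Areg, a ligand of the EGF receptor, by -2.94, SE 0.40.

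Extracellular proteases and their inhibitors were called 7 higher and 5 lower among 24 (11 and 9 with the block). Without the block the shares were 29.2% and 20.8%, near the 24% and 20% of all genes. The list also holds genes of membrane or intracellular proteins, among them Adam10 and Serpinb9. Mmp13, a collagenase, was at 74.6 ± 12.5 CPM in macrophages against 17 ± 2.43 CPM in monocytes (2.13, SE 0.20, adjusted p = 7.83e-08), Serpinb9, an inhibitor of granzyme B, was at 37.1 ± 9.49 against 19.4 ± 4.0 CPM (0.93, SE 0.18, adjusted p = 2.78e-04), and Mmp12, the macrophage elastase, was higher (log2 fold change 1.73, SE 0.41). Mmp8, the collagenase of neutrophils, was at 0.993 ± 0.25 against 30.4 ± 11.5 CPM (-4.93, SE 0.31, adjusted p = 6.97e-10). Slpi, which inhibits leukocyte proteases, was at 0.997 ± 0.386 CPM in macrophages against 93.5 ± 51.9 CPM in monocytes (-6.54, SE 0.50, adjusted p = 7.25e-09).

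Lectins, granule and antimicrobial products were called 1 higher and 13 lower among 19. Lgals3bp, a galectin-binding glycoprotein, was the higher one, at 768 ± 189.5 against 529 ± 82.5 CPM (0.54, SE 0.13, adjusted p = 0.00308). Fn1, fibronectin, and S100a4 were lower (log2 fold changes -1.72, SE 0.30 and -2.53, SE 0.27). Ctsg had 0 counts in every macrophage library and 82 in the monocyte libraries together. S100a8 and S100a9, calprotectin subunits of neutrophils and monocytes, had 37 and 43 counts over the macrophage libraries against 6510 and 13821 over the monocyte libraries. Of 12 neutrophil markers tested, 11 were lower in macrophages. Their list of 15 summed to 122 to 256 CPM in macrophage libraries and to 400.1 to 825 CPM in monocyte libraries, of which replicate 4 held the most. Most of the sum in macrophages came from Il1r2 (67.7 against 160 CPM in monocytes), Csf3r (61.8 against 130 CPM) and Mmp9 (32.9 against 51.3 CPM). Camp, Ngp and Stfa2l1 were at 0 in all macrophage libraries, and Ly6g, the antigen that defines mouse neutrophils, had 1 count in them and 58 counts in the monocyte libraries. The part of neutrophil RNA in the values of S100a8, S100a9, Lcn2, Mmp8, Cxcr2, Trem1, Trem3, Slpi and Ctsg was not tested.

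Proliferation, antigen presentation and interferon response separated the populations as well. Of 34 cell cycle genes 32 were higher in macrophages and 0 were lower, and for 32 of the 34 every macrophage library was above every monocyte library (median 1.63). Mki67, a marker of dividing cells, was at 201, 232, 224, 300.1 and 285 CPM in macrophages and at 43.3, 29, 64.5, 46.6 and 14 CPM in monocytes (2.65, SE 0.32, adjusted p = 2.15e-06). Mcm3 and Mcm4, helicase subunits that open DNA for replication, were at 212 ± 35.7 against 62.0 ± 21.2 CPM (1.77, SE 0.19, adjusted p = 6.20e-07) and 119 ± 20.8 against 48.3 ± 10.1 CPM (1.30, SE 0.15, adjusted p = 1.09e-06). The list summed to 2593 to 3262 CPM in macrophage libraries and to 357 to 1478 CPM in monocyte libraries, with monocyte replicate 5 the lowest.

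Of 11 genes of MHC class II presentation, 7 were higher and 0 were lower (9 and 1 with the block, and 7 and 1 without macrophage replicate 1). Cd74, the invariant chain that guides class II molecules, was at 12011 ± 3208 CPM in macrophages against 5003 ± 1496 CPM in monocytes (1.26, SE 0.21, adjusted p = 6.55e-05). H2-Ab1, a class II beta chain, was at 5130.1 ± 1486 against 2359.8 ± 877 CPM (1.12, SE 0.25, adjusted p = 0.0011), and H2-Ob, a chain of the peptide-loading regulator H2-O, was at 16.3 ± 4.29 against 6.32 ± 2.07 CPM (1.37, SE 0.20, adjusted p = 1.96e-05). Ciita, the factor that switches these genes on, was not called, at 122 against 98.4 CPM, and was higher with the block (adjusted p = 0.0286). H2 genes are alike in sequence and remain uncertain under unique alignment.

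Interferon-induced genes were called 3 higher and 23 lower among 32, with a median of -0.66. Isg20, a ribonuclease against viral RNA, was at 15.0 ± 3.54 CPM in macrophages against 67.9 ± 24.3 CPM in monocytes (-2.18, SE 0.22, adjusted p = 2.38e-07), and Gbp2, a guanylate-binding protein, was at 746 ± 104 against 1942 ± 457 CPM (-1.38, SE 0.19, adjusted p = 1.01e-05). Isg15, Mx1, Rsad2 and Oas3 were lower too (log2 fold changes -1.16, -0.92, -1.06 and -1.06). Ifi44, at 61.8 ± 15.6 against 28.5 ± 5.95 CPM (1.12, SE 0.19, adjusted p = 9.36e-05), Iigp1, at 269.9 ± 74.3 against 128 ± 43.6 CPM (1.08, SE 0.23, adjusted p = 6.79e-04), and Bst2 (0.50) were higher in macrophages. Gbp, Oas and Iigp genes have close relatives and are uncertain for that reason.

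Some of the genes with the largest differences lie outside these lists. Asb2, a ubiquitin ligase subunit that targets filamins, was at 51.1 ± 19.9 CPM in macrophages against 1.86 ± 0.793 CPM in monocytes (4.77, SE 0.35, adjusted p = 4.70e-09). Col14a1, a fibril-associated collagen, was at 217 ± 66.3 CPM in macrophages against 8.28 ± 2.31 CPM in monocytes (4.71, SE 0.31, adjusted p = 9.68e-10). Of 19 fibroblast markers 0 were higher and 2 were lower in macrophages, and the source of the Col14a1 RNA was not tested. Fcrls, an Fc receptor-like gene known from microglia, was at 285 ± 127 against 14.4 ± 5.69 CPM (4.31, SE 0.43, adjusted p = 1.92e-07). Scamp5, a secretory carrier protein, was at 46.8 ± 8.53 against 2.72 ± 0.909 CPM (4.10, SE 0.24, adjusted p = 2.03e-10), and Rapgef5, an exchange factor for Rap proteins, was at 20.6 ± 8.30 against 1.32 ± 0.367 CPM (3.96, SE 0.29, adjusted p = 3.98e-09). Klra17, a lectin-like receptor gene, was at 21.5 ± 8.58 against 1.40 ± 0.378 CPM (3.93, SE 0.36, adjusted p = 7.49e-08) and has near-identical relatives, so it is uncertain.

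Markers of other cells were summed in each of the 10 libraries. The 19 fibroblast markers summed to 112 to 2501 CPM in the macrophage libraries and to 395 to 3922 CPM in the monocyte libraries. Of these, 2 were lower and 0 were higher in macrophages, and 12 were lower with the block. Markers of T cells and natural killer cells summed to 13.4 to 35.5 and 19.0 to 45.7 CPM. Of them 1 was higher and 1 was lower (1 and 6 with the block), and the lower call was lost without macrophage replicate 2, 3 or 5 or monocyte replicate 2 or 5. Endothelial markers summed to 8.75 to 13.3 and 11.9 to 15.9 CPM. Markers of epithelium other than Cdh1 summed to 1.17 to 2.55 and 3.02 to 4.34 CPM, and Cdh1, which encodes E-cadherin and was not called, was at 44.8 against 35.6 CPM. Without the 6 control libraries that held most fibroblast marker RNA, which leaves 2 in each group, 3762 genes (24.3%) were higher and 3330 (21.5%) were lower in macrophages. In that fit Slc7a2, Steap4, Pgd, Cat, Arg1, Nos2 and Spp1 lost their calls (adjusted p between 0.0534 and 0.278).

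The same comparison in the 10 libraries of treated tumours, which share no sample with the control libraries, gave 4334 genes higher and 3959 lower (53.9% of genes in either direction). Of the genes called in control tumours, 3272 of 3700 (88.4%) higher and 2902 of 3084 (94.1%) lower were called on the same side in treated tumours. Both contrasts used 1 estimate of the spread from all 20 libraries. Of the 123 genes called among the 127 named, 121 were called on the same side, the exceptions being Slc7a2 (0.07, SE 0.33 in treated tumours) and Iigp1 (0.30, SE 0.22). C1qa was at 5039 ± 373 CPM in treated macrophages and at 593 ± 85.8 CPM in treated monocytes (3.09, SE 0.18). Cadm1 was at 221 ± 25.5 and 2.93 ± 1.04 CPM (6.23, SE 0.34), Ly6c2 at 11.1 ± 7.08 and 1575 ± 318 CPM (-7.15, SE 0.45), and Chil3 at 5.60 ± 3.99 and 824 ± 337 CPM (-7.20, SE 0.59). Cd274, which was not called in control tumours, was lower in treated macrophages (-0.92, SE 0.24, adjusted p = 0.00283).

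Whether the difference between the populations itself changed with treatment was tested for every gene. By edgeR's quasi-likelihood test 0 genes passed, 980 genes had an unadjusted p under 0.05, and the smallest adjusted p was 0.174. By limma-voom 0 genes passed, by DESeq2 7 did and with the block 3 did. Without monocyte replicate 5 of the control tumours 41 genes passed, all lower, and 1 passed without macrophage replicate 4. The named gene with the smallest unadjusted p was Ace, whose log2 fold change was -7.01, SE 0.45 in control and -9.02, SE 0.50 in treated tumours (unadjusted p = 0.00205, adjusted p = 0.688 by edgeR).

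**Figure D5:**
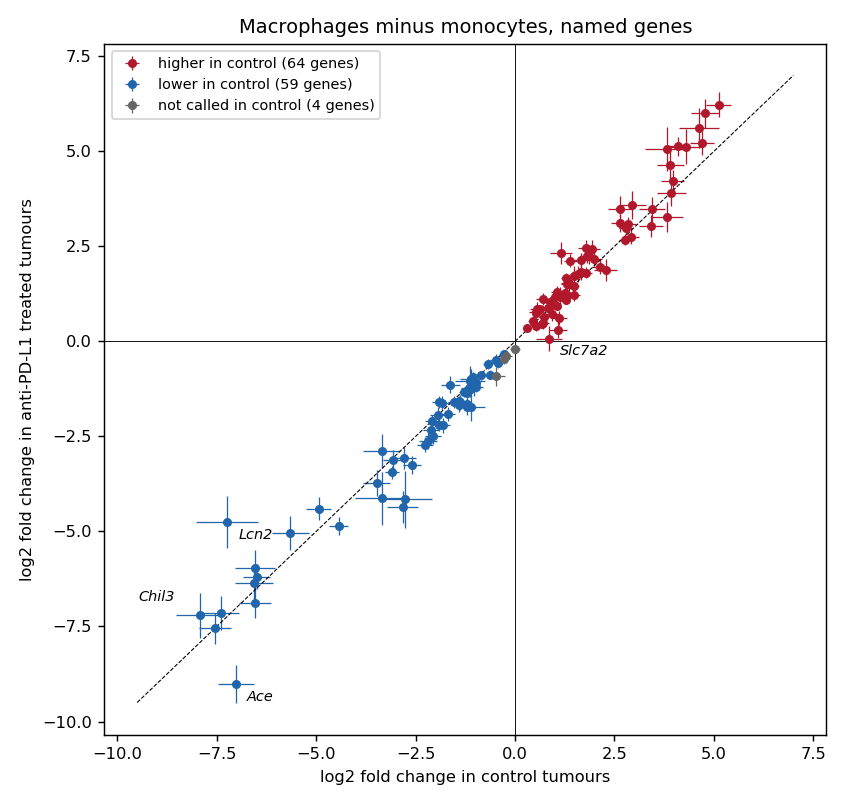
Log2 fold change (macrophages minus monocytes) in anti-PD-L1 treated tumours (vertical axis) against that in control tumours (horizontal axis) for the 127 named genes, with bars of 1 SE and a dashed line where both are equal. Red genes were called higher and blue genes lower in control macrophages, and 4 grey genes were not called. Slc7a2 lies near 0 on the vertical axis.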

How the data were processed

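Libraries of sorted cells were made with a stranded kit from 0.1 ug of total RNA, per the labels' protocols, while the label for the molecule is polyA RNA. GSNAP and GRCm38 are the aligner and build in the submitters' processing notes. How reads were counted, and whether by strand, is not given in the sources used here, so overlapping and antisense genes are uncertain. Per the file headers, the deposited count is the number of reads uniquely aligned to each of 36528 gene models, and the deposited RPKM is adjusted by size factors (nRPKM). Unique alignment drops reads that near-identical genes share.

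Entrez numbers were matched to RefSeq symbols of GRCm38.p6 for 31049 models (85.0%, 97.97% of counts). Unmatched models stayed in the tests. Counts were tested in R 4.3.3 with edgeR 4.0.16 (filterByExpr, TMM, quasi-likelihood, 1 mean per group, all 20 libraries), which left 15390 genes. CPM are scaled by TMM library sizes. Alternatives used limma 3.58.1 and DESeq2 1.42.0, other scalings, filters and samples. Libraries of a group were not copies: the lowest chi-square per degree of freedom between control replicates was 30.6.

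The labels give no replicate numbers, but control macrophage and monocyte libraries have neighbouring sample numbers. The deviations of the 5 neighbouring pairs from their group means correlated at 0.422 to 0.722 and those of the other pairs at -0.592 to 0.458 (macrophage 2 with monocyte 5). All 5 were above 0.1, and the numbers were taken as pairs for the block. For each monocyte library the neighbour had the highest correlation among the 5 macrophage libraries. Macrophage 2, however, correlated at 0.422 with its neighbour and at 0.458 with monocyte 5. Some other pairs were above 0.1 too, so the correlations do not settle whether the numbers pair the samples.

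The rule for named genes took up to 2 called members in each direction with the smallest p from each of the lists for receptors, transcription factors, metabolism, secreted and general programmes. It added 8 genes at each end of the fold changes among those called without overlap at a mean log2 CPM from 2 up, leaving out unnamed models and receptor segments. It always included 22 genes such as C1qa, Cadm1, Ly6c2, Chil3, Csf1r and Mki67. A few genes that the rule took are not reported here. The members and lists were chosen with earlier results of these data known.

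On simulated counts for this comparison over 15390 genes, 51, 68 and 81 genes were changed 1.5, 2 and 4 times. Of these, 52.9%, 61.8% and 90.1% were recovered, and 11 unchanged genes were called. Far fewer genes were changed there than were called in the data, and the libraries were drawn independently. These rates therefore do not carry over to the counts of genes given here. The floor of 3 counts covers counting error only, while SE and p-values also take in the variation among libraries. The B cell and the erythroid, platelet and mast cell lists were also counted: 1 of 3 and 1 of 10 tested members were higher, Cd79b and Pf4, and 0 were lower.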

Additional observations from a re-analysis of the deposited data

Results flagged for a closer look

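In the 254 groups of 5 libraries checked, 12 had 1 library far from the other 4, while chance flags about 1 in 20 groups. Monocyte replicate 4 accounts for 6 of them. It held 47.3 CPM of Fcgrt against 24.3 to 30.1 in the other monocyte libraries, 63.6 CPM of Mertk against 19.0 to 30.4, and 4084 CPM of Apoe against 1802 to 2136. It also held 38.9 CPM of Mvd against 29.33 to 31.96, 4.52 CPM of Hpgd against 10.69 to 13.02, and 19.3 CPM of Pdgfb against 40.6 to 46.2. Fcgrt, Mertk and Apoe are higher and Hpgd is lower in macrophages than in monocytes, so on these 4 genes the library lies on the macrophage side of its group, and for Pdgfb and Mvd on the other.

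Monocyte replicate 5 held 2439 CPM of Chil3 against 431 to 889.8 in the others. Iigp1 stood apart in 1 library of each population, macrophage replicate 3 at 399.8 CPM against 220.2 to 259 and monocyte replicate 1 at 205 CPM against 102 to 119. These 2 libraries have neighbouring sample numbers. Macrophage replicate 1 held 143 CPM of Fcgrt against 73.2 to 92.5 and 175 CPM of Ccl6 against 95.7 to 108. Macrophage replicate 2 held 98.4 CPM of Bhlhe40 against 138 to 151 in the other macrophage libraries.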

How the results depend on the processing

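The counts of genes higher and lower in control macrophages stayed within 1.5 times of 3700 and 3084 under all 20 alternatives. They ranged from 2679 and 2365 with the 10 control libraries only to 4814 and 4492 with the replicate block, and from 3048 to 3763 and from 2622 to 3600 when 1 library was left out. The balance turned to 3353 higher and 3397 lower with relative log expression factors to 3471 and 3506 with DESeq2, to 3048 and 3105 without macrophage replicate 2 and to 3140 and 3242 without macrophage replicate 4, and was 4099 and 2596 with library sizes only. Of the 123 called named genes, 113 kept their call under every alternative. Those that lost it in at least 1 were Aldoc, Sms, Slc7a2, Steap4, Pgd, Cat, Spi1, Arg1, Nos2 and Spp1. With only the control libraries these were Sms (adjusted p = 0.0681), Pgd (0.111), Cat (0.079) and Spi1 (0.0993), while Slc7a2 was also lost with relative log expression factors (0.0575) and with the fibroblast covariate (0.0884), and Pgd without a filter (0.103). Acvrl1, Cxcl10, Fcgr1, Tlr1 and Tlr2 were also not called with only the control libraries (0.0899, 0.0866, 0.09, 0.0838 and 0.0501), and Cd68 and Sirpa were higher with library sizes only (0.0309 and 0.0137). The replicate block ended no call of a named gene. Among the genes given here it added calls of Irf8, Cd274, Cd68, Sirpa, Ciita, Ly6c1 and Tnf. The difference of Csf1r, which was near 0, changed sign with limma-voom (0.0026), library sizes only (0.0817), no filter (0.0133), the replicate block (0.0056) and without macrophage replicate 1 (0.0022) or 3 (0.0107) or monocyte replicate 2 (0.0431) or 5 (0.0858). It ranged from -0.11 to 0.0858 when 1 library was left out. Its cause was not tested. For the change of the population difference with treatment, DESeq2 called 1 gene higher and 6 lower, and the replicate block called 2 higher and 1 lower. Without 1 control library, 0 genes were higher and 0 to 41 were lower, with 41 without monocyte replicate 5 and 1 without macrophage replicate 4. The fit of the control libraries alone gives no value for treated tumours. In leaving out libraries, the filter was applied again. Depth limits genes near 3 counts, such as Lcn2, Cxcr2 and Ctsg in macrophages, whose fold changes depend on the prior count and are no bound.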

Other observations

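Short motifs of myeloid factors were counted in the 250 bases before the first start listed for genes with a difference of at least 4-fold, in the RefSeq promoter table for GRCm38.p6, on both strands. The listed start was the annotated start of the gene for 54.8% of the tested genes, 56.7% of those higher and 61.9% of those lower, and other windows can cover transcribed bases. Of 224 such promoters of genes higher in macrophages, 31.3% held the PU.1 core GAGGAA, and of 270 promoters of genes lower in macrophages 31.9% did, against 23.2% of the 11251 promoters of tested genes. The letters TGCTGA, part of the site of MAF factors, was in 20.1% and 18.1% of them, against 12.9%. The letters TTGCNNAA, which C/EBP factors are known to bind, were in 8.93% of the promoters of genes higher and in 15.2% of those lower in macrophages, against 7.57% of tested genes. The AP-1 letters TGANTCA were in 7.59% and 11.9%, against 4.65%. Among windows at the annotated start, PU.1 letters were in 33.1% and 32.9% against 23.8%, and C/EBP letters in 11.0% and 16.2% against 7.89%. No test was made, the motifs are short, and promoters that differ in base composition can differ in such counts.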
